A study of Mus musculus with 10 samples.

Results

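Toll-like receptors (TLRs) are the sensors by which microglia and other innate immune cells recognise microbial products and molecules released from injured cells. *Tlr1*, *Tlr2* and *Tlr4* act at the cell surface, whereas *Tlr3*, *Tlr7* and *Tlr13* sense nucleic acids inside endosomes. *Cd14* is the co-receptor that hands ligands to the surface receptors, *Myd88* is the adaptor through which all of these receptors except *Tlr3* signal, and *Cd86* is a co-stimulatory surface molecule that antigen-presenting cells display upon activation. These 9 genes were taken by symbol from a table of 15900 genes. All 9 were listed, each in 1 row, and all 9 passed the filter on low values that left 15851 genes for testing.

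The levels were measured in whole hippocampi by cap analysis of gene expression (CAGE), which sequences the capped ends of RNAs so that each tag marks the start of 1 transcript. Status epilepticus (SE), a state of prolonged seizures, was induced with pilocarpine (PILO) in male outbred ICR (CD-1) mice aged 9 to 10 weeks, to follow early gene expression with and without the antiepileptic drug levetiracetam (LEV). There were 5 groups of 2 mice, each mouse with its own library: pre-SE mice, SE 6 h and SE 2 days mice, sampled at these times after SE, and SE + LEV 6 h and SE + LEV 2 days mice. The labels call the pre-SE mice untreated, whereas the methods describe control mice as given saline in place of PILO. Mice with SE had received methyl scopolamine before PILO, had 5 generalized convulsive seizures and were given diazepam to end SE, so that diazepam was shared by the SE and the SE + LEV groups. LEV was given by mouth after diazepam, 1 time before the 6 h sampling and 5 times before the 2 days sampling.

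The 10 libraries held 10540698 to 51710968 tags, with a median of 26671413. Levels are given as CPM, the tag count scaled to a common library total, on which the detection floor of 3 tags equals 0.058 to 0.285 CPM. Each member exceeded this floor in all 10 libraries. Neuron markers (5 of 5 listed) summed to 4205 to 4763 CPM in pre-SE mice and 2576 to 3225 CPM in SE 2 days mice. Choroid plexus markers (2 of 3 listed), which depend on how the tissue was dissected, ran from 7.99 to 3959 CPM between libraries. With 2 mice a group, all calls rest on the spread that limma estimates over all 5 groups and all genes.

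The genes lie apart from each other in the mouse genome (NCBIM37, mm9). *Tlr2* is on the minus strand at chr3:83640195-83645689, *Tlr1* at chr5:65316050-65324000, *Tlr3* at chr8:46481019-46495962 and *Cd86* at chr16:36603955-36666167, also on the minus strand. *Tlr4* lies on the plus strand at chr4:66488618-66591318, and *Tlr13* (plus) and *Tlr7* (minus) lie on the X chromosome. *Myd88*, on the minus strand at chr9:119245052-119250529, overlaps the listed gene *Acaa1a* on the opposite strand. Whether strand was used when tags were summed to genes is not given in the sources used here, so *Myd88* values may hold *Acaa1a* tags.

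Because CAGE reads transcript starts, the DNA just before the starts of 2 responsive genes is shown, that of *Tlr2*, the receptor with the largest log2 fold change (logFC) after SE, and that of *Myd88*, the shared adaptor. Sequences of the promoter windows are from RefSeq (table build GRCm38.p6) and were placed on mm9 by exact match. Of the 9 genes, 5 had an entry. Only bases outside annotated exons are printed, 5′ to 3′ on the strand of the gene, with motif matches in capitals. The *Tlr2* stretch is chr3:83645690-83645780, minus strand, in no annotated gene. The *Myd88* stretch is chr9:119249160-119249386, minus strand, inside the annotated *Myd88* gene but in none of its exons.
Tlr2: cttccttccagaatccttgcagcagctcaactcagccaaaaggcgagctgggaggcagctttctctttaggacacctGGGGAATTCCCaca
Myd88: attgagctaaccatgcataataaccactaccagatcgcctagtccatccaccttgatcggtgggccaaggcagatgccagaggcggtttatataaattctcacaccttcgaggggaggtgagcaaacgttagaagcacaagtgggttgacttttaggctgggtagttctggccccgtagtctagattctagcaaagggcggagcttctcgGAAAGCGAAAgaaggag

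The capitals in *Tlr2* are 2 overlapping matches to the NF-kB consensus, the binding motif of the factors at the end of TLR signalling, and those in *Myd88* are a match to the interferon-stimulated response element (ISRE, GAAA followed after a gap of 2 bases by GAAA). The 4 motifs searched on both strands in the 250 bases before the RefSeq start were these and those of AP-1 (TGANTCA) and PU.1 (GAGGAAGT), a factor of myeloid cells. Over 32817 RefSeq windows of that length, 7.25% held an NF-kB match, 2.97% an ISRE match, 6.75% an AP-1 match and 2.44% a PU.1 match. *Tlr3* held 1 NF-kB match and 1 of the 2 *Tlr1* windows a PU.1 match, and the *Tlr13* window held none of the 4 motifs. The *Tlr3* match, at bases -211 to -202 from the start, lay past the first 22 bases of its window. Only those 22 were upstream of every annotated exon. These are matches of letters, and binding was not measured.

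Between pre-SE and SE mice, *Cd14* and *Tlr2* had the largest logFC of the 9 genes at both times. *Cd14* stood at 1.31 and 0.43 CPM in the pre-SE mice, at 34.29 and 29.05 CPM in SE 6 h mice and at 29.59 and 27.37 CPM in SE 2 days mice. Both SE groups lay far above the pre-SE mice, and they overlapped each other. In bulk tissue a change in the number of expressing cells and a change in RNA per cell cannot be told apart. The mean rose from 0.87 ± 0.622 to 31.7 ± 3.71 CPM at 6 h (SD, n = 2 mice a group), 36.4 times the pre-SE mean, with a logFC of 5.19 ± 0.63 (SE of the fit) and a limma adjusted p of 0.00296. At 2 days the mean was 28.5 ± 1.57 CPM and the logFC was 5.05 ± 0.63 (limma adjusted p = 0.0018). *Cd14* was the only member that was not higher at 2 days than at 6 h, with a logFC between these times of -0.15 (95% interval -1.54 to 1.24, limma adjusted p = 0.915).

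*Tlr2*, the receptor for bacterial lipoproteins, had 0.34 and 0.21 CPM in pre-SE mice, which were 10 and 11 tags. It had 4.3 and 2.67 CPM at 6 h and 17.26 and 15.71 CPM at 2 days. The 3 groups did not overlap and rose in this order. Relative to pre-SE the mean was 12.7 times as high at 6 h (logFC 3.24 ± 0.54, limma adjusted p = 0.0114) and 59.9 times as high at 2 days (logFC 5.49 ± 0.54, limma adjusted p = 0.000955). The step from 6 h to 2 days was a logFC of 2.25 ± 0.54 with a limma adjusted p of 0.0459, a call that was lost under 12 of 21 alternative settings (adjusted p 0.00362 to 0.209), among them edgeR's quasi-likelihood test (0.0685) and the omission of any 1 of the pre-SE, SE 6 h, SE + LEV 6 h or SE 2 days mice.

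*Tlr1*, which pairs with *Tlr2* in binding lipoproteins, was measured at 0.45 and 0.75 CPM before SE, 2.02 and 1.03 CPM at 6 h, and 2.46 and 2.91 CPM at 2 days. All SE mice were above the pre-SE mice, and the change was called only at 2 days (logFC 2.02 ± 0.43, limma adjusted p = 0.0233, against 1.18 ± 0.43 and 0.197 at 6 h). *Tlr4*, the lipopolysaccharide receptor that *Cd14* serves, had 0.83 and 1.24 CPM before SE, 1.86 and 2.06 CPM at 6 h, and 5.26 and 6.54 CPM at 2 days. These groups too were separate at each step. Its logFC was 0.88 ± 0.44 at 6 h (limma adjusted p = 0.327) and 2.42 ± 0.44 at 2 days (limma adjusted p = 0.0108), and the step between the times, 1.54 with a 95% interval of 0.55 to 2.52, did not pass the adjustment (limma adjusted p = 0.0874).

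The endosomal receptors did not move as one. *Tlr13*, a sensor of bacterial ribosomal RNA, had 1.41 and 0.83 CPM before SE, 4.84 and 5.82 CPM at 6 h, and 8.31 and 9.12 CPM at 2 days. The groups did not overlap at any step. It rose by a logFC of 2.19 ± 0.38 at 6 h (limma adjusted p = 0.0139) and of 2.89 ± 0.38 at 2 days (limma adjusted p = 0.00239), to 4.76 and 7.78 times the pre-SE mean.

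*Tlr7*, a sensor of single-stranded RNA, had 1.86 and 0.73 CPM before SE, 1.86 and 2.47 CPM at 6 h and 8.01 and 6.07 CPM at 2 days. The first 2 groups met at 1.86 CPM, and both SE 2 days mice were above all of these. The logFC at 2 days, 2.47 ± 0.71, was as large as that of *Tlr4* but had the largest error of the members and missed the threshold (limma adjusted p = 0.0741). *Tlr7* passed it in a fit of only the groups compared (adjusted p = 0.0343), with DESeq2 (0.00568) and when a mouse outside the comparison, SE + LEV 6 h replicate 1 (0.033) or 2 (0.0324), was left out.

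*Tlr3*, the sensor of double-stranded RNA, which signals without *Myd88*, had 7.62 and 8.93 CPM before SE, 6.48 and 7.26 CPM at 6 h, and 22.47 and 10.13 CPM at 2 days. Both SE 6 h mice were below the pre-SE mice and both SE 2 days mice above them, with the 2 mice of the last group 2.22 times apart. Neither difference passed the test, with a logFC of -0.26 at 6 h (95% interval -1.16 to 0.64, limma adjusted p = 0.774) and of 0.86 at 2 days (-0.04 to 1.77, limma adjusted p = 0.272). It was the member with the lowest logFC at both times.

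*Myd88* had 3.62 and 5.36 CPM before SE, 9.91 and 16.1 CPM at 6 h, and 24.93 and 23.79 CPM at 2 days. The 3 groups were separate and increasing. The 6 h logFC of 1.5 ± 0.38 just missed the threshold (limma adjusted p = 0.0668) and passed it under median-of-ratios rescaling (0.0452), edgeR (0.0457), DESeq2 (0.00133) and without SE + LEV 2 days replicate 2 (0.0494). At 2 days the rise was called (logFC 2.44 ± 0.38, limma adjusted p = 0.00468), with a mean 5.42 times that of pre-SE mice.

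*Cd86* had closely matched pre-SE values of 1.21 and 1.26 CPM, 3.75 and 3.29 CPM at 6 h, and 6.83 and 5.64 CPM at 2 days. All 3 groups were again separate. The logFC was 1.44 ± 0.51 at 6 h (limma adjusted p = 0.182) and 2.24 ± 0.51 at 2 days (limma adjusted p = 0.0303).

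**Figure D1:**
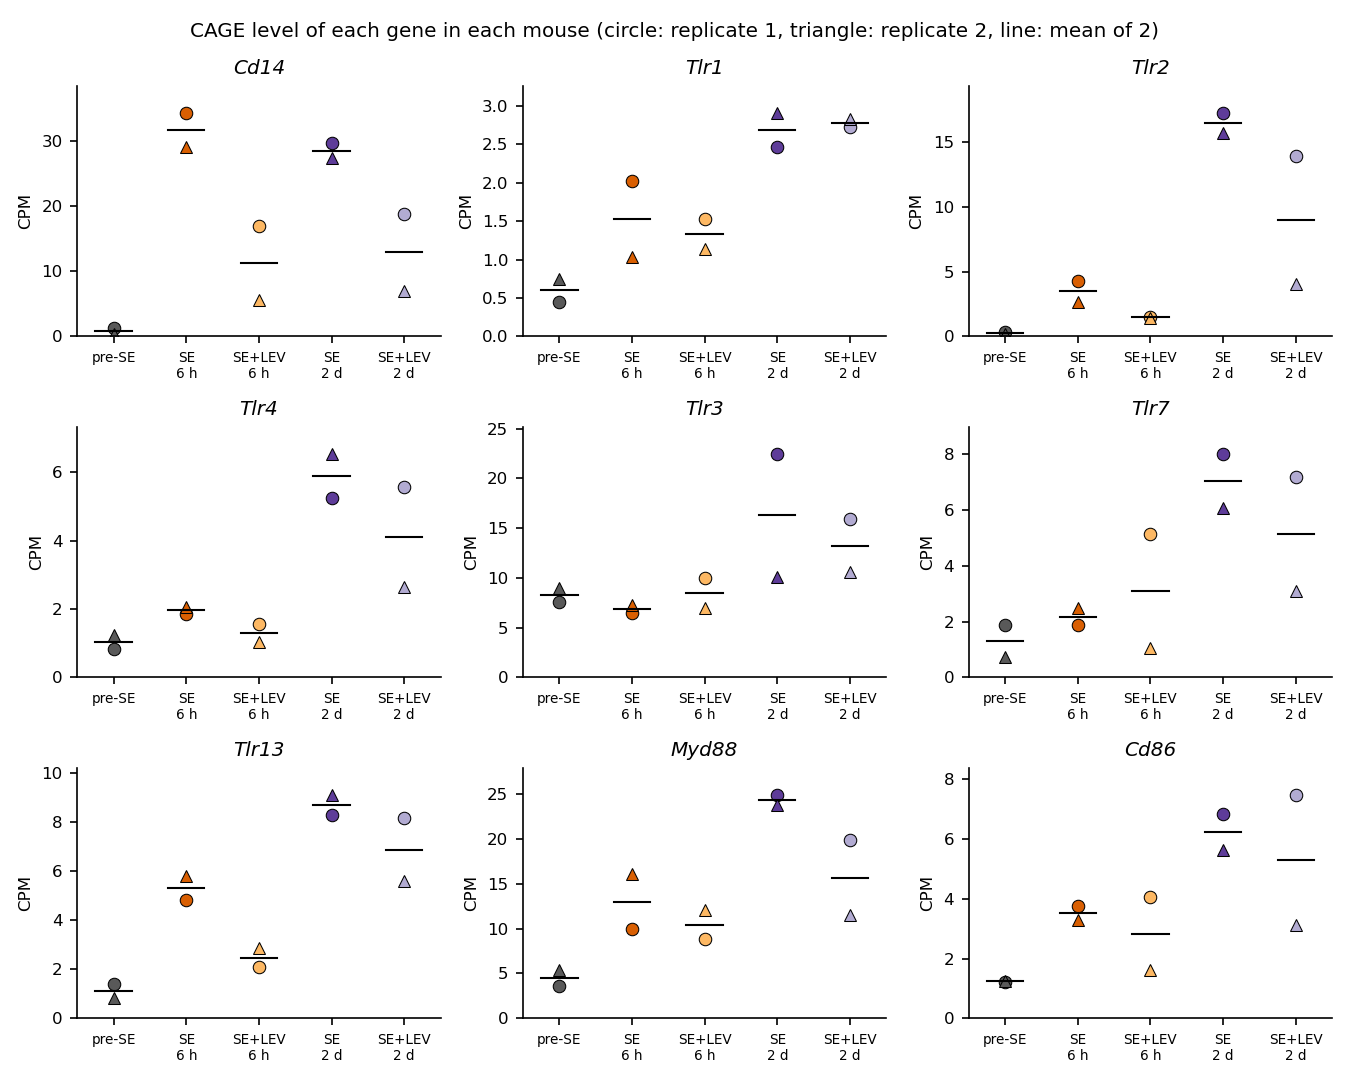
CPM of each of the 9 genes (vertical axes, from 0) in each of 10 mice, by group, with a circle for replicate 1, a triangle for replicate 2 and a line at the mean. *Cd14* was already near its highest level in SE 6 h mice (29.05 and 34.29 CPM), whereas *Tlr2*, *Tlr4*, *Tlr7* and *Myd88* were highest in SE 2 days mice, and the groups of *Tlr3* lay closest together relative to their level.

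Counted together, 3 of the 9 genes (*Cd14*, *Tlr2* and *Tlr13*) were called higher in SE 6 h than in pre-SE mice, where 2.76% of all genes tested were, and 7 of 9 in SE 2 days mice, where 5.07% were. The pair of SE 6 h mice exceeded the pre-SE pair without overlap in 7 of 9, against 18.6% of all genes, and in 1, *Tlr3*, both were below, against 31.3%. At 2 days both SE mice were above in all 9, against 26.3%. The median logFC of the members was 1.44 at 6 h and 2.44 at 2 days, beside -0.13 and -0.03 over all genes tested; rescaling by median of ratios moved the 6 h median over all genes to near 0 (-0.00473) and called 4 members. Both comparisons use the same pre-SE mice.

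Single mice bore on these counts, and the fits below, with 1 mouse left in a group, also called fewer of all genes tested. Without pre-SE replicate 2, SE 6 h replicate 1 or SE 6 h replicate 2, *Cd14* remained the 1 member called at 6 h, with adjusted p of 0.0566 to 0.0829 for *Tlr2* and 0.0605 to 0.124 for *Tlr13*. At 2 days, 4 members were called without pre-SE replicate 1 or without SE 2 days replicate 2, where *Cd86* (0.16 and 0.156), *Tlr1* (0.201 and 0.185) and *Tlr4* (0.103 and 0.111) missed the threshold. *Cd86* (0.11 and 0.114) and *Tlr1* (0.0643 and 0.0587) also missed it without SE 2 days replicate 1 or pre-SE replicate 2.

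**Figure D2:**
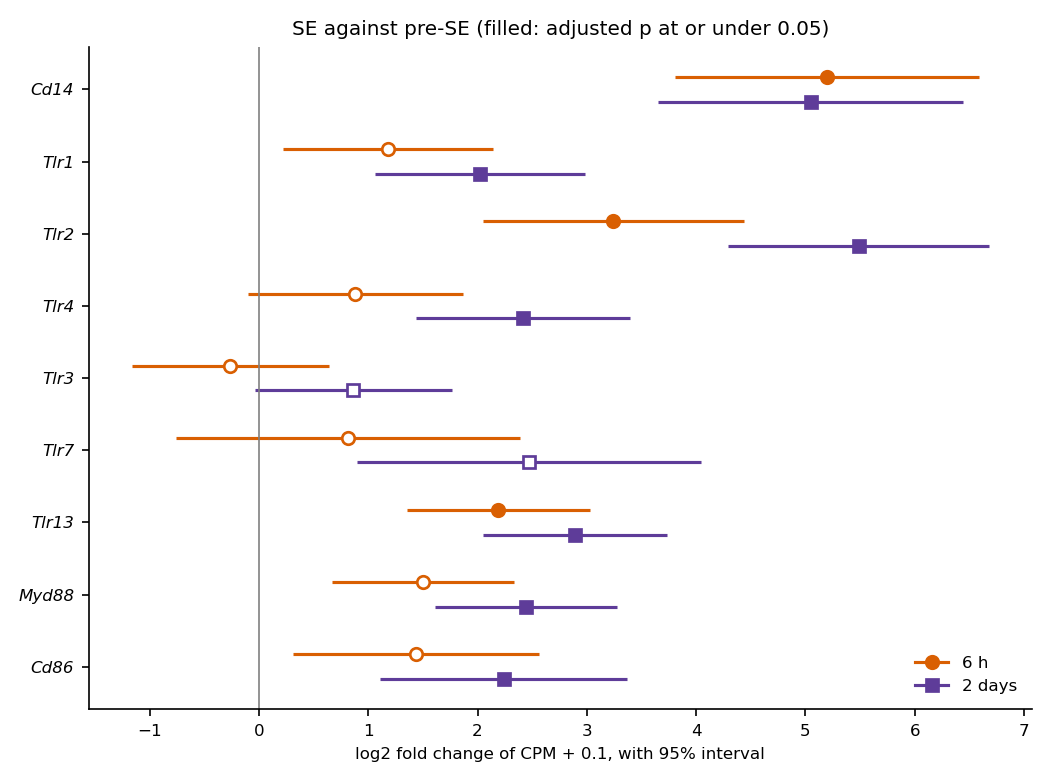
LogFC of each gene in SE against pre-SE mice at 6 h (circles) and 2 days (squares), with 95% intervals from limma on log2(CPM + 0.1). The filled symbols are the calls, 3 at 6 h and 7 at 2 days, and *Cd14* and *Tlr2* lie farthest from 0.

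From 6 h to 2 days, 8 of 9 members were higher in both mice, against 31% of all genes, and 1 of 9, *Tlr2*, was called, against 3.14%. Their median logFC was 0.94, beside 0.09 over all genes. At an unadjusted p under 0.05 by limma there were 5 members (*Tlr2*, *Tlr3*, *Tlr4*, *Tlr7* and *Myd88*), where 3181 of all 15851 genes were.

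Microglia markers had a lower sum at 6 h than before SE, but the means of *Siglech* and *Sall1* were 0.863 and 1.02 times those of pre-SE. The summed level of 9 such genes (all 9 listed) was 168.8 to 182.4 CPM in pre-SE mice and 82.9 to 93.3 CPM in SE 6 h mice, and *P2ry12* and *Tmem119*, both defining genes of resting microglia, were called lower, where 0.202% of all genes were. At 2 days the sum was 304.6 to 328.4 CPM, with *Aif1* called higher relative to pre-SE. Not all of the markers had risen. *P2ry12* had 16.91 to 18.06 CPM at 2 days, below its 26.88 to 41.45 CPM in pre-SE mice, without a call. The 2 days means of *Siglech* and *Sall1* were 0.674 and 0.87 times those of pre-SE, and those of the other markers were above pre-SE. Between the times, 6 of the 9 markers were called higher (*Aif1*, *Csf1r*, *P2ry13*, *Gpr34*, *Cx3cr1* and *Tmem119*), over the same interval in which 8 of 9 members were higher in both mice.

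Some monocyte and macrophage markers were also called at 2 days. This list (6 of 8 listed, without *Ccr2* and *Ly6c2*) summed to 8.57 to 8.63 CPM before SE, 12.67 to 14.91 CPM at 6 h and 47.44 to 76.13 CPM at 2 days, when 3 of the 6, *Ms4a7*, *Plac8* and *Lyz2*, were called higher by limma and 2 by edgeR. At 6 h limma, edgeR and DESeq2 each called 0 of them, with 1 at an unadjusted p under 0.05. The neutrophil list had 3 of 8 genes listed (*S100a8*, *S100a9* and *Csf3r*, not *Ly6g*), with sums of 5.04 to 5.84, 5.93 to 7.74 and 12.42 to 14.76 CPM in the same order. Its 3 genes did not move together. The means of *Csf3r* were 4.345, 2.65 and 10.73 CPM. Those of *S100a8* (0.51, 1.92 and 1.47 CPM) and *S100a9* (0.585, 2.265 and 1.395 CPM) were highest at 6 h. limma called none of these 3 genes at 6 h or 2 days (2 and 1 at an unadjusted p under 0.05), and edgeR and DESeq2 each called 0 and 1. None of 6 lymphocyte markers was listed, and 2 of 5 dendritic cell markers were, at 9.83 to 10.68 CPM before SE and 8.23 to 8.4 CPM at 2 days. The part of any of these cells in the changes of the 9 genes was not tested.

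**Figure D3:**
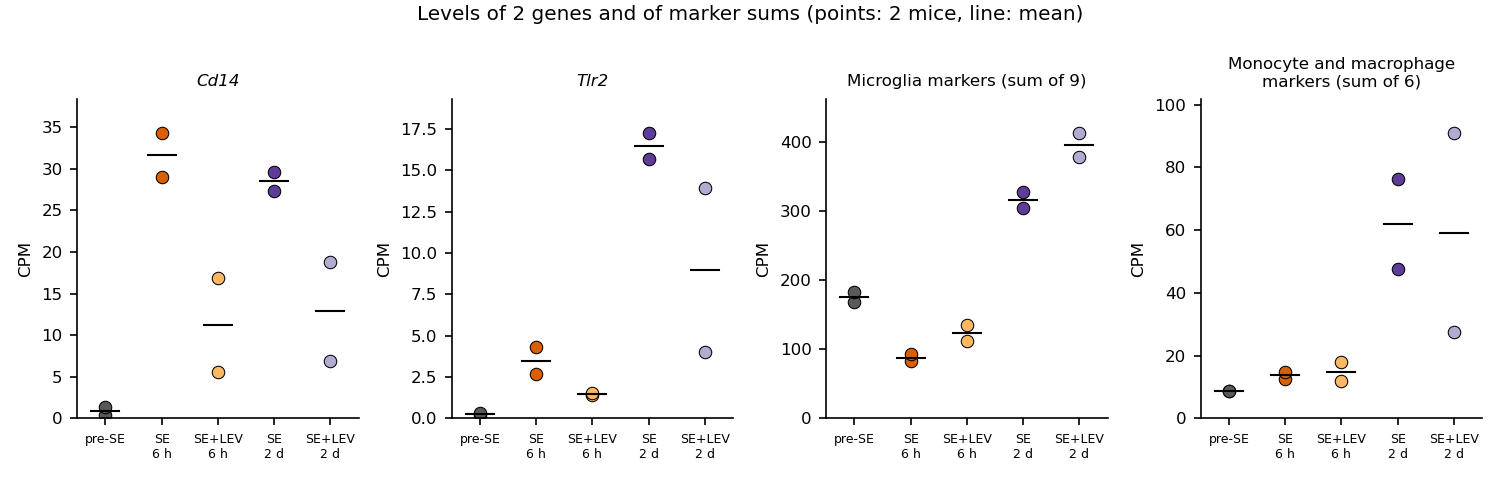
CPM of *Cd14* and *Tlr2* beside the summed CPM of 9 microglia markers and of 6 monocyte and macrophage markers, with a point for each of the 2 mice a group and a line at the mean. *Cd14* stood near 30 CPM in SE 6 h mice while the microglia sum lay below its pre-SE range, and all 4 quantities were above pre-SE at 2 days.

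With LEV, the question was whether these changes were smaller, and *Cd14* showed the widest gaps. At 6 h it had 16.85 and 5.6 CPM in SE + LEV mice, both below the 34.29 and 29.05 CPM of SE mice, and at 2 days 18.84 and 6.9 CPM, both below 29.59 and 27.37 CPM. The groups did not overlap at either time, and the 2 mice given LEV differed from each other 3.01 times at 6 h and 2.73 times at 2 days. The logFC was -1.69 at 6 h (95% interval -3.08 to -0.3, limma adjusted p = 0.949) and -1.31 at 2 days (-2.7 to 0.08, limma adjusted p = 1).

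*Tlr2* had 1.53 and 1.42 CPM in SE + LEV 6 h mice and 13.92 and 4.03 CPM in SE + LEV 2 days mice. Both pairs were below the SE mice of the same time. The logFC was -1.15 (95% interval -2.34 to 0.04) at 6 h and -1.12 (-2.32 to 0.07) at 2 days, with a limma adjusted p of 1 at both. *Tlr13*, at 2.09 and 2.85 CPM and then at 8.16 and 5.59 CPM, was likewise below SE in both mice at both times, by a logFC of -1.09 (-1.93 to -0.25, limma adjusted p = 0.872) and -0.36 (-1.2 to 0.48, limma adjusted p = 1).

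*Myd88* had 8.87 and 12.05 CPM in SE + LEV 6 h mice, which overlapped SE 6 h mice, and 19.87 and 11.54 CPM in SE + LEV 2 days mice, below both SE 2 days mice. Its logFC at 2 days was -0.68 (95% interval -1.51 to 0.15, limma adjusted p = 1). *Tlr4* was below SE in both mice at 6 h only, at 1.56 and 1.04 CPM, and its values of 5.58 and 2.63 CPM at 2 days overlapped those of SE mice. The logFC was -0.58 at 6 h and -0.6 at 2 days.

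For the other 4 genes the SE + LEV and SE mice overlapped at both times. *Tlr1* had almost equal levels in SE + LEV 2 days mice (2.72 and 2.83 CPM) and SE 2 days mice, with a logFC of 0.05 and a 95% interval of -0.91 to 1.01. *Tlr7* (5.15 and 1.04 CPM at 6 h, 7.18 and 3.08 CPM at 2 days) and *Cd86* (4.05 and 1.61 CPM, then 7.48 and 3.12 CPM) were wide apart within the LEV groups. *Tlr3* had 10 and 6.93 CPM and then 15.87 and 10.56 CPM.

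None of the 9 genes was called lower with LEV by limma at 6 h, where 0.0126% of all genes were, nor at 2 days, where 0% were. At an unadjusted p under 0.05 by limma there were 2 members at 6 h (*Cd14*, 0.0222, and *Tlr13*, 0.0161) and 0 at 2 days. Over all 15851 genes there were 726 and 428. edgeR and DESeq2 called 0 at either time, with 3 and 3 members under 0.05 at 6 h and 0 and 1 at 2 days. By these tools 680 and 699 of all genes were under 0.05 at 6 h, and 435 and 515 at 2 days. Both LEV mice were below both SE mice in 4 of 9 genes at 6 h (*Tlr2*, *Tlr4*, *Tlr13* and *Cd14*), against 13.4% of all genes, and in 4 of 9 at 2 days (*Tlr2*, *Tlr13*, *Cd14* and *Myd88*), against 12.2%. The estimate was below 0 in 7 of 9 at 6 h and 8 of 9 at 2 days, against 44.3% and 44.6% of all genes. The median logFC of the members was -0.44 at 6 h and -0.56 at 2 days, beside 0.04 over all genes at both.

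The LEV difference at 2 days was not distinguishable from that at 6 h for any member. limma, edgeR and DESeq2 each called 0 of 9, with 0 under an unadjusted p of 0.05, and 0% of all genes was called higher or lower by limma. The differences in logFC ran from -0.68 for *Tlr7* to 0.73 for *Tlr13*, whose 95% intervals were -2.9 to 1.54 and -0.46 to 1.92.

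**Figure D4:**
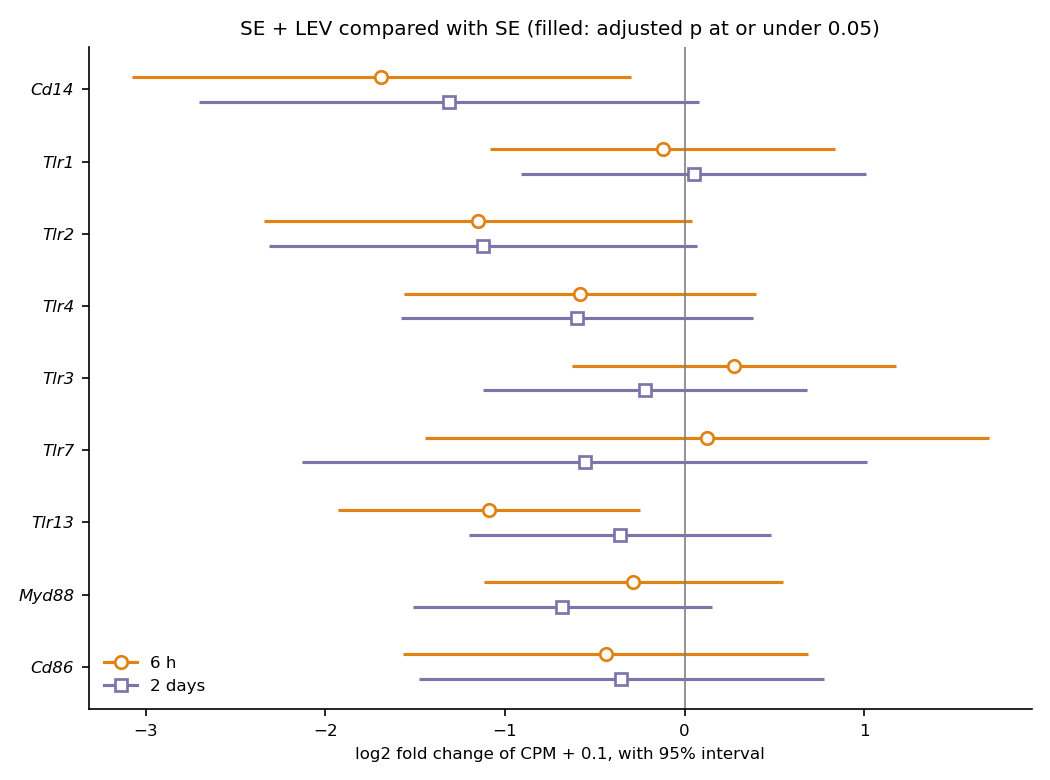
LogFC of each gene in SE + LEV against SE mice at 6 h (circles) and 2 days (squares), with 95% intervals from limma. All symbols are open because none was called, and the intervals of *Cd14* and *Tlr13* at 6 h are the only ones that do not reach 0 (before adjustment over genes).

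The 2 SE + LEV 2 days mice were unlike each other. Replicate 1 was above replicate 2 in 8 of 9 genes, by 1.46 (*Tlr13*) to 3.45 times (*Tlr2*). *Tlr1* was 1.04 times as high in replicate 2 as in replicate 1. The ratio of the higher to the lower mouse, whichever that was, had a median of 2.12 over the members and 1.3 over all genes tested. In SE 2 days mice the corresponding ratios were 1.05 to 2.22 with a median of 1.18. In pre-SE mice they were 1.04 to 3.05 with a median of 1.62, beside 1.24 over all genes. The SE + LEV 6 h mice differed by 1.08 to 4.95 times (median 1.44, 1.28 over all genes), and replicate 1 was higher in 7 of 9. Replicate 1 was the deeper library in both LEV groups (30096467 against 10540698 tags at 6 h, 43743195 against 24346865 at 2 days). It was also deeper in SE 6 h mice, where it was higher in 4 of 9, and in SE 2 days mice, where it was higher in 6 of 9. In pre-SE mice replicate 2 was the deeper library, and replicate 1 was higher in 4 of 9. In SE + LEV 6 h replicate 2, *Tlr4* and *Tlr7* had 11 tags each. Any bearing of depth was not tested. Within the SE + LEV 2 days group the sums of the microglia markers were less divided, at 378.6 and 413.4 CPM. Those of the monocyte and macrophage markers were more so, at 27.52 and 90.91 CPM. Single markers did not follow these sums. Of the microglia markers, *Csf1r* had 148.52 to 153.6 CPM, but *P2ry12* had 20.37 to 52.74 and *Siglech* 5.19 to 23.86 CPM. In the other list *Lyz2* had 16.68 to 70.82 CPM and *Plac8* 2.96 to 3.43 CPM. With LEV against SE, limma called 0 microglia and 0 monocyte and macrophage markers at either time (3 and 0 at an unadjusted p under 0.05 at 6 h, 0 and 0 at 2 days), edgeR 0, and DESeq2 1 microglia marker at 6 h. The neutrophil sums were 15.16 to 25.1 CPM in this group and 8.57 to 10.06 CPM in SE + LEV 6 h mice, whose microglia sums of 112 to 135.6 CPM were above those of SE 6 h mice. In SE + LEV 2 days mice *Csf3r* alone had 13.4 to 22.43 CPM. The part of these cells in the LEV comparison was not tested.

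Set against pre-SE mice, SE + LEV mice were still higher in many of the genes, a comparison that shares its mice with those above. At 6 h none of 9 members was called by limma, where 0.315% of all genes were called higher, although the LEV pair lay wholly above the pre-SE pair in 6 of 9 (17% of all genes) and 5 had an unadjusted p under 0.05 (1487 of all 15851 genes). edgeR called 0 and DESeq2 called 2 (*Cd14* and *Tlr2*). *Cd14* was nearest, with a logFC of 3.51 ± 0.63 and a limma adjusted p of 0.0575, which was 0.0287 without SE + LEV 2 days replicate 1 and 0.0283 without replicate 2 of that group.

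At 2 days 5 members were called higher with LEV than before SE, where 2.83% of all genes were, and all 9 were higher in both mice, against 22.6%. They were *Tlr2* (logFC 4.37, limma adjusted p = 0.00315), *Cd14* (3.74, 0.0108), *Tlr13* (2.53, 0.00688), *Tlr1* (2.07, 0.0308) and *Myd88* (1.76, 0.0346). The count fell to 1 without pre-SE replicate 2 or SE + LEV 2 days replicate 1, in both cases *Tlr2* and to 3 without pre-SE replicate 1 or either SE 2 days mouse. In a fit of only these 4 mice it was 0, with adjusted p of 0.0726 for *Tlr2* to 0.165 for *Myd88*. That fit called 0 of all 15851 genes higher and 0 lower, where the fit of all mice called 448 and 3. The fits named here with a mouse left out also called fewer of all genes.

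The order of the 5 group means differed between genes. For *Tlr2* and *Tlr13* it was pre-SE, SE + LEV 6 h, SE 6 h, SE + LEV 2 days and SE 2 days, with an overlap only between SE 6 h and SE + LEV 2 days. *Cd14* had both SE groups at the top, which overlapped, then both SE + LEV groups, which overlapped, then pre-SE. For *Tlr1* the SE + LEV and SE means overlapped at each time, and the 3 levels of 2 days, 6 h and pre-SE did not. *Tlr7* showed an overlap between every pair of neighbours in its order.

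Around the members, 71 further genes of the pathway were considered in 7 lists, of which 59 were listed and tested. After SE, 2 of 59 were called higher at 6 h, where 2.76% of all genes were, and 13 of 59 at 2 days, where 5.07% were, with none called lower at either time (14 and 24 at an unadjusted p under 0.05 in either direction). Over all 15851 genes, 2809 and 3132 had an unadjusted p under 0.05. edgeR called 3 and 12 and DESeq2 7 and 15, all of them higher. The median logFC of the 59 genes was 0.35 at 6 h and 0.66 at 2 days, beside -0.13 and -0.03 over all genes.

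Transcription factors of the pathway were the list with the most calls, 2 of 10 at 6 h and 6 of 10 at 2 days. *Nfkb2*, a subunit of NF-kB, had 0.31 and 0.33 CPM before SE, 3.69 and 3.49 CPM at 6 h, and 5.43 and 3.96 CPM at 2 days, and was called at both times (logFC 3.13 and 3.5, limma adjusted p = 0.00754 and 0.00269). *Rel*, another subunit, rose by 1.62 and 1.4 on the log2 scale (0.0205 and 0.0257). Its 6 h call was lost without any 1 of the pre-SE or SE 6 h mice (adjusted p up to 0.141), and its 2 days call in a fit of only the groups compared and without either pre-SE mouse or SE 2 days replicate 2 (up to 0.236). The 6 h call of *Nfkb2* was lost without pre-SE replicate 1 or either SE 6 h mouse (up to 0.0597). Among the interferon regulatory factors, *Irf1*, *Irf5*, *Irf7* and *Irf8* were called against pre-SE at 2 days but not at 6 h, and *Irf3* was called at neither time (limma adjusted p = 0.935 and 0.922). *Irf7*, which acts downstream of the endosomal receptors, had 0.93 and 0.93 CPM before SE, 1.96 and 2.06 CPM at 6 h, and 83.31 and 38.69 CPM at 2 days. Its 6 h mean was 2.16 times the pre-SE mean, without overlap and without a call (limma adjusted p = 0.226), and the 2 days level exceeded that of 6 h by a logFC of 4.75 (0.00172). *Irf8*, a factor of myeloid cells, and *Irf1* were also called at 2 days, both against pre-SE (logFC 2.32 and 2.07) and against 6 h (1.73 and 2.2), and *Irf5* against pre-SE (1.69). The *Irf8* call against 6 h was lost under 10 of 21 alternatives, edgeR among them (adjusted p up to 0.231), and its call against pre-SE without either pre-SE mouse or SE 2 days replicate 1 (up to 0.0566). Both *Irf1* calls were lost without either SE 2 days mouse, that against pre-SE also without either pre-SE mouse (up to 0.16) and that against 6 h without SE 6 h replicate 1 (up to 0.146).

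Accessory proteins were called by limma in 0 of 8 at 6 h (1 at an unadjusted p under 0.05, edgeR 0, DESeq2 1) and 3 of 8 at 2 days. The latter were *Cd180* (logFC 4.2, limma adjusted p = 0.026) and *Ly86* (2.66, 0.00405), which form a receptor complex related to that of *Tlr4*, and *Unc93b1* (1.54, 0.0118), which carries the endosomal receptors to their compartment. *Unc93b1* had 7.24 and 8.39 CPM before SE, 4.94 and 5.41 CPM at 6 h, and 21.07 and 24.65 CPM at 2 days. It was thus lower in both mice at 6 h, without passing the test (limma adjusted p = 0.319), and higher in both at 2 days. *Cd180* had 1.55 and 1.02, then 2.79 and 0.75, then 29.43 and 21.16 CPM, and its 2 days call was lost when any 1 mouse of the 2 groups was left out (adjusted p up to 0.146). That of *Ly86* was lost without SE 2 days replicate 2 (0.0511), and that of *Unc93b1* without either pre-SE mouse or SE 2 days replicate 2 (up to 0.12).

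The adaptors, kinases and ubiquitin ligases that stand next to *Myd88* in the pathway showed no call against pre-SE. By limma 0 of 21 were called at 6 h and 0 of 21 at 2 days, with 2 and 5 at an unadjusted p under 0.05, and edgeR called 0 and 0 and DESeq2 0 and 1. The median logFC of this list was 0.13 and -0.02. *Ikbke*, a kinase that activates interferon regulatory factors, was called between the 2 times, from 0.48 and 0.48 CPM to 2.2 and 2.96 CPM (logFC 2.19, limma adjusted p = 0.0152), a call lost without any 1 of these 4 mice (up to 0.113).

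Of 8 inhibitors tested, limma called 0 at 6 h (2 at an unadjusted p under 0.05, edgeR 0, DESeq2 2) and 2 at 2 days, *Socs1* (logFC 2.18, limma adjusted p = 0.04) and *Cd300lf* (4.7, 0.0442). Both are dampeners of the response, and *Cd300lf* was spread widely among the SE + LEV 2 days mice (22.31 and 1.85 CPM). Before SE it had 0.02 and 0.21 CPM, the lower value under the floor of 3 tags. Its 2 days logFC ran from 2.42 to 5.92 over the alternatives. The 2 days call of *Cd300lf* was lost under 11 of 21 alternatives (adjusted p up to 0.207) and that of *Socs1* under 7 of 21, namely a pseudocount of 1 and the omission of any 1 of the pre-SE, SE 6 h or SE 2 days mice (up to 0.213). Reported endogenous ligands were called by limma in 0 of 8 at 6 h (2 at an unadjusted p under 0.05, edgeR 0, DESeq2 0) and 1 of 8 at 2 days. This was *Bgn*, a matrix proteoglycan, from 5.24 and 6.07 CPM before SE to 22.81 and 30.9 CPM (logFC 2.21, limma adjusted p = 0.00533), a call lost without SE 2 days replicate 2 (0.0713). Among co-stimulatory genes related to *Cd86*, 2 of 7 were listed, and *Cd274*, an inhibitory ligand, was called only at 2 days (at 6 h, 0 by all 3 tools and 1 at an unadjusted p under 0.05; logFC 2.89, limma adjusted p = 0.0139), and that call was lost without either pre-SE mouse or SE 2 days replicate 1 (up to 0.0841).

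Of the 6 Toll-like receptors that are no members, 2 were listed, *Tlr8* and *Tlr9*, and neither was called at 6 h or 2 days by limma, edgeR or DESeq2 (0 and 1 at an unadjusted p under 0.05 by limma). *Tlr9* had 0.83 and 0.87 CPM before SE, 0.35 and 0.21 CPM at 6 h, and 2.16 and 1.86 CPM at 2 days. It was lower in both mice at 6 h and higher in both at 2 days, with limma adjusted p of 0.364 and 0.435.

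**Figure D5:**
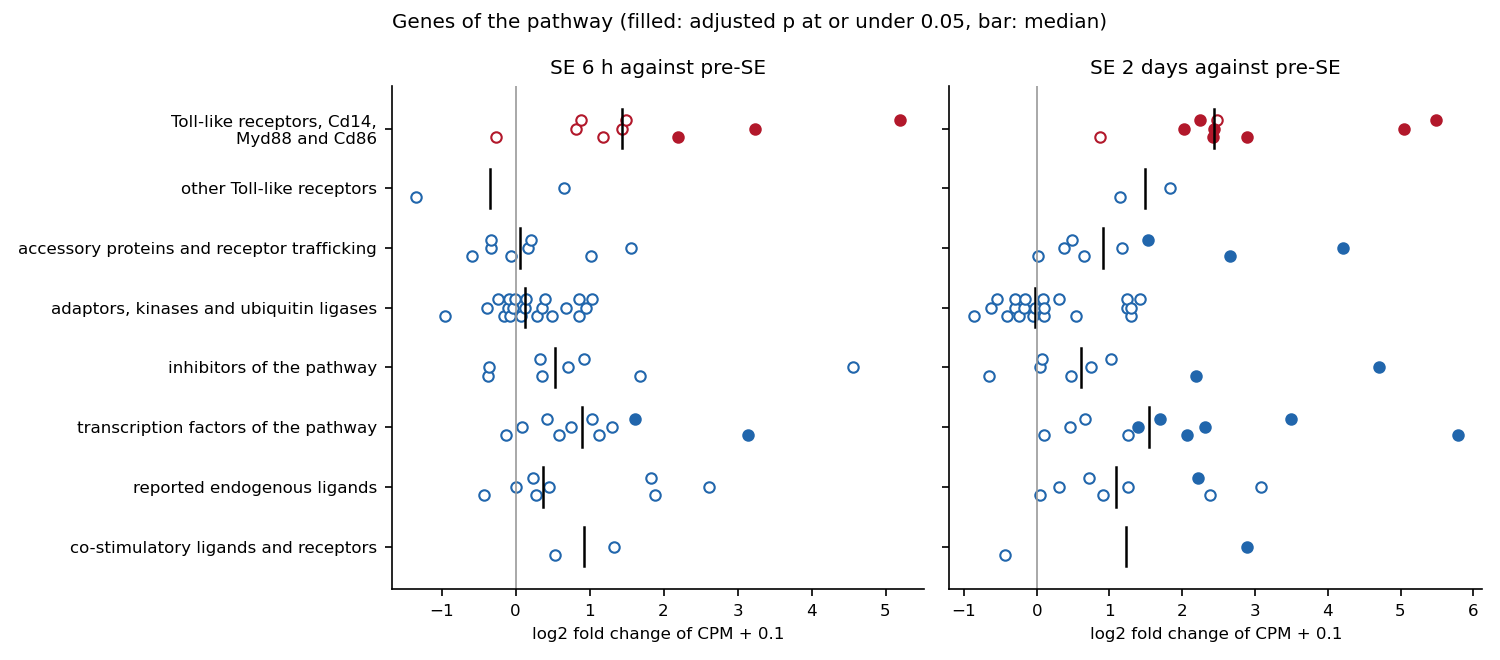
LogFC after SE at 6 h (left) and 2 days (right) for the 9 genes and for 7 lists of the pathway, with a point for each gene, filled where called, and a bar at the median. The transcription factors have 2 calls at 6 h and 6 at 2 days, and the adaptors and kinases have none.

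From 6 h to 2 days, 8 of the 59 pathway genes were called higher, where 3.14% of all genes were, and none lower, and with LEV against SE 0 of 59 were called at either time by limma, edgeR or DESeq2. At an unadjusted p under 0.05 the LEV comparison held 2, 3 and 5 genes at 6 h and 0, 0 and 1 at 2 days by these tools. Over all 15851 genes it held 726, 680 and 699 at 6 h and 428, 435 and 515 at 2 days. *Nfkb2* had 3.02 and 1.52 CPM in SE + LEV 6 h mice and 3.89 and 1.77 CPM in SE + LEV 2 days mice, below both SE mice at each time (logFC -0.71 and -0.79, limma adjusted p = 1 at both). Against pre-SE, SE + LEV mice had 0 calls at 6 h (9 at an unadjusted p under 0.05, edgeR 0, DESeq2 3) and 8 at 2 days, where 2.83% of all genes were called higher.

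The pattern over the 10 libraries was compared with that of every gene with a mean of at least 1 CPM, as a Pearson correlation on log2(CPM + 0.1). These libraries share 5 groups, so any genes that change after SE correlate. *Cd14* was most like the chemokine genes *Ccl4* (r = 0.986) and *Ccl3* (0.972) and *Nfkb2* (0.972). *Tlr2* was most like *Ch25h* (0.984), *Capg* (0.983) and *Lgals3* (0.98), *Tlr4* like *Gpr65* (0.993), *Lcp1* and *Tgm1* (both 0.976), and *Tlr13* like *Plin2* (0.971), *Timp1* (0.969) and *Plek* (0.966). *Myd88* was nearest to *Itga5* (0.982), *Stat3* (0.976) and *Anxa3* (0.972).

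The other 4 genes had other neighbours. *Tlr1* was most like *Tec* (0.964), *Ms4a6d* (0.931) and *Csf2ra* (0.929), *Tlr7* like *Cdt1* (0.974), *Samsn1* (0.969) and *Slfn2* (0.938), and *Cd86* like *Csf2rb2* (0.973), *AI607873* (0.964) and *Tm4sf1* (0.961). *Tlr3* was most like *A2ld1* (0.939), *Rps19-ps4* (0.934) and *Eif2ak2* (0.927), the last a kinase activated by double-stranded RNA. Among the members themselves, r was highest for *Tlr2* with *Tlr13* (0.963) and lowest for *Tlr3* with *Cd14* (0.269).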

How the data were processed

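CAGE libraries of whole hippocampi from 10 mice were used. The authors mapped tags to mm9 with BWA 0.7.17 and then HISAT2 2.0.5, grouped tags into clusters with RECLU (those under 0.1 CPM were removed) and deposited a CPM value for each gene and mouse. The step from clusters to genes is not given in the sources used here. Tag counts were recovered from the deposited CPM values, which were whole numbers of tags in 100% of cases within 0.0051 CPM.

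Groups followed the labels, and the number of unused per-mouse columns was 0. CPM values were tested as log2(CPM + 0.1) with limma 3.58.1 in R 4.3.3, in 1 fit of 10 libraries with 5 group means and a mean-variance trend. Tests were two-sided and adjusted by Benjamini-Hochberg over the 15851 genes that reached 0.1 CPM in 2 or more libraries, and called means an adjusted p not above 0.05. Counts at an unadjusted p under 0.05 stand beside these limma counts over all 15851 genes. Against pre-SE they were 2809 (SE 6 h), 3132 (SE 2 days), 1487 (SE + LEV 6 h) and 1707 (SE + LEV 2 days). Between the SE times there were 3181. For LEV against SE there were 726 at 6 h, 428 at 2 days and 377 for the difference. LogFC values are on this scale and understate changes of low genes. The procedure was tested on simulated data.

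The members and the lists were chosen with earlier results of these data known. All 9 members were named, as were at most 3 called genes with the largest logFC for each pathway list and comparison (and *Irf3*, *Irf5*, *Tlr8* and *Tlr9*, named after their values were seen) and the 3 genes most like each member. One microglia marker of the planned list is not reported here. Marker lists covered microglia, monocytes and macrophages, neutrophils, lymphocytes, dendritic cells, neurons and choroid plexus, and those of astrocytes (5 of 5 listed, 2132 to 2201 CPM before SE and 3425 to 4821 CPM in SE 2 days mice), endothelium (3 of 3, 31.98 to 34.58 and 52.68 to 73.82 CPM) and oligodendrocytes (3 of 3, 4015 to 4598 and 1430 to 2187 CPM). Of these 3 lists limma called *Cdh5* higher at 6 h and *Gfap* and *Aqp4* higher at 2 days. It called none of the neuron (1 and 2 at an unadjusted p under 0.05 at 6 h and 2 days), oligodendrocyte (0 and 3), dendritic cell (1 and 2) or choroid plexus markers (0 and 0), of which edgeR also called 0, and DESeq2 called 1 neuron and 1 dendritic cell marker at 6 h and 2 oligodendrocyte and 1 dendritic cell marker at 2 days, all lower.

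Alternatives were pseudocounts of 0.01, 0.5 and 1, no filter, a filter of 1 CPM, median-of-ratios rescaling, a replicate block, no trend, only the groups compared, edgeR 4.0.16 and DESeq2 1.42.0 on the recovered tags and the omission of each mouse. A crossed block was added after the data were seen. Intervals cover 95% and, like the floor of 3 tags, no error beyond that of their model.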

Additional observations from a re-analysis of the deposited data

Results flagged for a closer look

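*Tlr2* was the 1 member whose SE effect differed between the times by a test of the difference itself, with a logFC at 2 days above that at 6 h by 2.25 (limma adjusted p = 0.0459, 0.00362 to 0.209 over the alternatives). *Tlr3* was below the pre-SE mice in both mice at 6 h and above them in both at 2 days, with a logFC of -0.26 at 6 h and 0.86 at 2 days, and the difference between these, 1.13, had a limma adjusted p of 0.16.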

How the results depend on the processing

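For the 9 genes in 8 comparisons, 1455 of 1530 alternative values kept the side of the threshold, 53 lost a call, 22 gained one and 0 reversed a called direction. Against pre-SE, the count of members called at 6 h was 3 and became 5 with DESeq2, and with each mouse left out it ran from 1 to 4; at 2 days it was 7 and ran from 4 to 8. Between SE 2 days and SE 6 h it was 1 and became 0 with a pseudocount of 0.01, median-of-ratios rescaling, no trend and edgeR, and it ran from 0 to 1 with each mouse left out. For SE + LEV against pre-SE it was 0 at 6 h, 1 with a replicate block, 2 with DESeq2 and 0 to 1 with each mouse left out, and at 2 days it was 5, 3 with a replicate block, 0 with only the groups compared and 1 to 6 with each mouse left out. Counts over all genes changed under many of these settings as well, and the cause of these changes was not tested. For SE + LEV against SE the count was 0 under all alternatives run, and so it was for the difference between its times. These comparisons had no call to lose and make up part of the 1530 values. The share of values that kept their side is thus no measure of how stable the calls were. Same-numbered mice are different animals, and their deviations correlated with r of -0.436 to 0.344. The replicate block changed no other count by over 1.5 times and added the call of *Tlr7* at 2 days, and with it the call of *Irf8* between SE 6 h and SE 2 days was lost (adjusted p = 0.0597). With the numbers crossed, SE + LEV 2 days against pre-SE gave 7 calls and against SE 2 days 0. Crossing was run only for these comparisons, picked because r in the same data was most negative there. The 7 calls are therefore no added support. Over all genes that fit against pre-SE called 859 higher and 80 lower, where the main fit called 448 and 3.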
